A study of Mus musculus with 127 samples.

Results

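The genes described here are 33 genes of glycolysis and of the response to low oxygen, all present among the 23366 genes of the deposited count table. They were listed by name for their known roles, with no threshold on measured values. They comprise transporters of glucose and lactate, hexokinases, phosphofructokinases and their regulators, and enzymes that act between glucose phosphate and lactate. Also listed are a kinase that closes the pyruvate gate, Hif1a with the oxygen-sensing hydroxylases that regulate it, and further hypoxia-induced genes. RNA was measured in 3 cell types sorted by surface markers from the bone marrow of individual mice. LT are haematopoietic stem cells with long-term activity, ST are stem cells whose activity is short-term, and MPP are the multipotent progenitors that follow them. In the stimulated course, which used 3 young mice (numbered 1, 2 and 3) and 1 old mouse (number 2), the medium held LPS at 100 ng/ml, a ligand of the receptor TLR4, and Pam3csk4 at 1 ug/ml, a ligand of TLR2. Samples were taken at 0, 0.5, 1, 2, 4, 8 and 12 h. The unstimulated course used young mouse 4 with old mouse 4, no ligand, and samples at 0, 2, 4 and 8 h. The ligands stand in the labels of some 0 h libraries too (from young mouse 1, young mouse 2 or old mouse 2), and those libraries were read as baseline. The labels give age only as young or old and name no strain or genotype. Each course therefore comes from different animals, so that a difference between courses cannot be told apart from a difference between those animals, and the unstimulated course mixes 1 young with 1 old mouse.

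Glycolysis splits glucose into pyruvate, which is turned into lactate by lactate dehydrogenase or enters the mitochondria through pyruvate dehydrogenase. When oxygen is low, the transcription factor subunit HIF1A is no longer marked for destruction by prolyl hydroxylases (Egln1, Egln3) and raises the transcription of many glycolytic genes. Quiescent haematopoietic stem cells are known for relying on glycolysis, and activated myeloid cells for raising it. Levels are given as CPM, the counts of a gene per 1000000 counts of its library. They are not divided by transcript length, so they are compared between samples and not between genes.

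Libraries held 990801 to 11764630 counts (median 4200714) and 6241 to 14096 detected genes. In all mice except young mouse 3, the 0 h libraries carried much RNA of granule genes of maturing neutrophils (S100a8, S100a9, Ngp, Camp, Ltf and Lcn2). Their summed level was 16764 to 64447 CPM in those 15 libraries and 98.8 to 240 CPM in the 3 libraries of young mouse 3. The summed level of 11 stem and progenitor markers (Procr, Slamf1, Mecom, Kit and others) ran the other way, at 554 to 2328 CPM against 3360 to 4488 CPM. The cell types named here are those of the labels. Marker sums were also compared between 0 and 8 h. The neutrophil granule sum kept a wide range: in LT of the young stimulated mice it was 240 to 54031 CPM at 0 h and 215 to 65688 CPM at 8 h, and without ligand 18325 to 62289 and 14646 to 43571 CPM. Other sums went up or down by 8 h, depending on the markers, cell type and course. In stimulated MPP of the young mice 5 macrophage markers went from 82.9 to 392 CPM at 0 h to 132 to 919 CPM at 8 h. In unstimulated LT 4 stromal markers (Col1a1, Col1a2, Cxcl12 and Lepr) went from 0.847 to 5.27 CPM to 35.8 to 129 CPM. The sums that follow were lower at 8 h. In unstimulated LT the 4 granule genes of myeloid progenitors (Mpo, Elane, Prtn3 and Ctsg) went from 8264 to 19734 CPM at 0 h to 2290 to 3979 CPM at 8 h, and 5 macrophage markers from 572 to 631 CPM to 0.601 to 169 CPM. In stimulated LT of the young mice 5 megakaryocyte markers went from 108 to 261 CPM to 0 to 8.10 CPM. In unstimulated ST the 11 stem and progenitor markers went from 595 to 903 CPM to 228 to 424 CPM. The part of these RNAs in the values below was not tested. In such bulk samples fewer cells of a type and less RNA per cell cannot be told apart. Detected genes in LT numbered 10101 at 0 h and 6241 at 8 h for young mouse 1, 12319 and 7547 for young mouse 2, and 12155 and 11501 for young mouse 3, and 9 later libraries of young mice 1 and 2 had fewer than 8000.

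Aldoa, which encodes the aldolase that cleaves fructose 1,6-bisphosphate, was the one gene of the 33 that edgeR called higher in all 3 cell types after stimulation. At 0.5 and 1 h its fitted change lay between −0.20 and 0.16 on the log2 scale and did not pass, and the rise came between 2 and 8 h. In LT of young mouse 1 it went from 1168 CPM at 0 h to 717 at 1 h, 1833 at 4 h, 3036 at 8 h and 2551 at 12 h. In young mouse 2 the LT values were 797, 800.1, 1939.8, 3345 and 3191 CPM at the same times. In young mouse 3 they were 765, 769.7, 1574, 1930.0 and 1546 CPM. All 3 LT libraries at 4 h and at 8 h lay above all 3 at 0 h, with young mouse 3 the lowest of these 3 mice from 4 h on. ST of young mice 1, 2 and 3 began at 1077, 953 and 833 CPM and stood at 3189, 2803 and 1315 CPM at 8 h. MPP began at 899, 659.8 and 603 CPM and reached 2916, 2492 and 1127 CPM at 8 h. The 8 h values of each cell type again lay above the 0 h values of the same cell type in every one of these mice. Old mouse 2 gave 803 CPM at 0 h and 2616 at 8 h in LT, 981 and 2129 in ST, and 627 and 2384 in MPP.

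**Figure D1:**
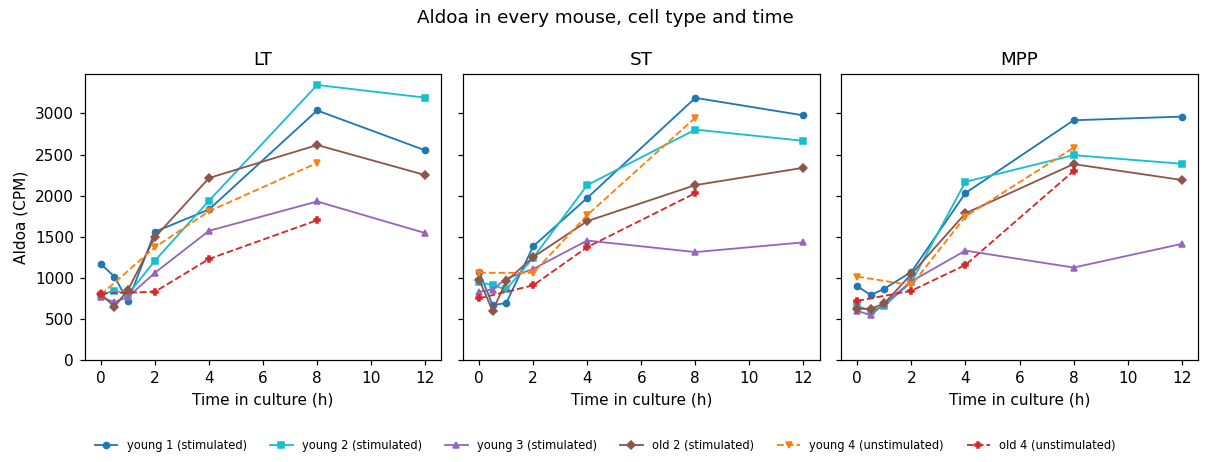
Aldoa in CPM (vertical axis, from 0) against hours in culture (horizontal axis), 1 panel per cell type and 1 point per library, with solid lines for mice given ligands and dashed lines for mice without. In every mouse and cell type the 8 h point lies above the 0 h point, and at 8 h young mouse 3 is lowest in ST (1315 CPM) and MPP (1127 CPM) and old mouse 4 in LT (1702 CPM).

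The 8 h change against 0 h in the 3 young mice was 1.65 ± 0.34 on the log2 scale in LT (SE, edgeR quasi-likelihood test, Benjamini-Hochberg adjusted p = 0.0082), a 3.14-fold rise. It was 1.44 ± 0.33 in ST (edgeR adjusted p = 0.0338) and 1.77 ± 0.34 in MPP (edgeR adjusted p = 0.00249). At 12 h the changes of 1.499, 1.40 and 1.81 also passed (edgeR adjusted p = 0.0248, 0.0342 and 0.00164). At 4 h MPP passed (1.52, edgeR adjusted p = 0.017), whereas LT (1.12, adjusted p = 0.175) and ST (1.08, adjusted p = 0.281) passed with the mouse kept as a block (edgeR adjusted p = 0.00975 and 0.0198). Aldoa was the 1 member called at any of the 6 times in each cell type, where 0.585% of all 13678 genes tested were called in LT, 0.695% in ST and 0.534% in MPP. Under the block 2 members were called in each cell type, beside 2.08%, 2.75% and 1.67% of all genes. The 8 h calls rested on young mice 1 and 2: without young mouse 1 the edgeR adjusted p was 0.117 in LT, 0.34 in ST and 0.0794 in MPP, and without young mouse 2 it was 1 in all 3, while the log2 change stayed between 1.34 and 1.80. Without the 9 libraries of fewer than 8000 detected genes the change was 1.202 in LT (edgeR adjusted p = 0.904) and 1.27 in ST (adjusted p = 0.148), and in MPP it remained called at 1.88 (adjusted p = 0.00146). Without young mouse 3, which had the least granule RNA, the change was larger (1.77, 1.69 and 2.05) and passed in all 3 cell types.

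The same rise was seen without ligand. In young mouse 4 Aldoa went from 798 CPM at 0 h to 1811 at 4 h and 2398 at 8 h in LT, from 1064 to 1765 and 2949 in ST, and from 1018 to 1746 and 2583 in MPP. In old mouse 4 it went from 812 to 1232 and 1702 CPM in LT, from 753 to 1375 and 2032 in ST, and from 723 to 1159 and 2299.6 in MPP. Both 8 h libraries lay above both 0 h libraries in each cell type. The unstimulated 8 h change was 1.67 ± 0.37 in ST (edgeR adjusted p = 0.0265) and 1.73 ± 0.37 in MPP (adjusted p = 0.0192). In LT it was 1.52 (adjusted p = 0.0599, and 3.67e-05 with the mouse as a block). These were the 2 calls among 99 pairs of a member and a cell type, where 0.255% of such pairs over all 14401 genes tested were called. With the block 4 of 99 pairs were called, beside 1.08% of all pairs. Without young mouse 2, young mouse 4, old mouse 2 or old mouse 4 neither call was kept (edgeR adjusted p from 0.0776 to 0.752), with the log2 change between 1.54 and 1.97.

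The difference between the courses was itself tested, as the change with ligands minus the change without. At 8 h it was 0.23 ± 0.44 in LT, with a 95% interval from −0.65 to 1.12, −0.22 ± 0.44 in ST, from −1.10 to 0.67, and 0.15 ± 0.44 in MPP, from −0.74 to 1.04 (edgeR adjusted p = 1 in each). No member was called at 2, 4 or 8 h in any of the 99 pairs, where edgeR called 0.0671% of pairs over all genes. An unadjusted p under 0.05 was met by 1 of the 99 pairs (8.71% of all pairs), DESeq2 called 1 (2.70% of all pairs) and limma voom 1 (2.19%). Nfkbia, Nfkbiz and Tnfaip3, induced by the same receptors and used as a check of the ligands, rose in the stimulated course in 3 of 3 genes in edgeR, with a median change over contrasts of 4.66. Without ligand the median was 1.59 and 0 of 3 were called. The difference between courses was called for 2 of 3, Nfkbia and Nfkbiz.

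RefSeq gives Aldoa several start sites, and windows of 2 of them are shown because they differ in the letters of the element bound by HIF. The letters ACGTG and GCGTG, the core of the hypoxia response element, were searched on both strands of 300-base windows that run from 250 bases before to 50 bases after each RefSeq start (GRCm38.p6). The 250 bases before the start are printed 5′ to 3′ on the gene's strand, with matches on either strand in capitals. Tpi1 and Gpi1, called lower in the fit with the mouse as a block, are shown beside Aldoa.
Aldoa, chr7:126799255-126799504, minus strand: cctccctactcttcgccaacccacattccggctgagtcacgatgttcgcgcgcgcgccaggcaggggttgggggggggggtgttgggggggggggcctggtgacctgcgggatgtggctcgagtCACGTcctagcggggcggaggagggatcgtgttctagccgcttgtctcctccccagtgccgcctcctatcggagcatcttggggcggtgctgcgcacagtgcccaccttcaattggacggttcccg
Aldoa, chr7:126800448-126800697, minus strand: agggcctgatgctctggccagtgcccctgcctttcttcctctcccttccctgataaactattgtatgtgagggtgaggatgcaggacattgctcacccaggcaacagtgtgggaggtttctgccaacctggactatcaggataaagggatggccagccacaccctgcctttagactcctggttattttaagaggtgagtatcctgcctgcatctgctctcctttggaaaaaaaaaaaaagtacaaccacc
Tpi1, chr6:124814159-124814408, minus strand: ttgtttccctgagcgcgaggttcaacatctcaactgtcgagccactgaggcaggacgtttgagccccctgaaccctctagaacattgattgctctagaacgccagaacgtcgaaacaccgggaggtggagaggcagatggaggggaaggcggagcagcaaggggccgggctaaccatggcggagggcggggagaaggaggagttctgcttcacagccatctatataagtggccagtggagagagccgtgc
Gpi1, chr7:34230337-34230586, minus strand: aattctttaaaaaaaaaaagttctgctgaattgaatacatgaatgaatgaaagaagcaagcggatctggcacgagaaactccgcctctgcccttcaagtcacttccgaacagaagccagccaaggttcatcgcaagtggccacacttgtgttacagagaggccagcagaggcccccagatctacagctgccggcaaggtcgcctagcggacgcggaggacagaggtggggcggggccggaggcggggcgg
The first Aldoa window held 1 match, 126 bases before its start, and the other 3 windows held none, which says only that these letters are not in these windows. Of the 33 genes 31 had a window (Bnip3l and Slc2a3 had none in the table), and 29 of the 31 (93.5%) held a match in at least 1 window, beside 46.7% of all 27025 symbols. By window, 37 of 44 (84.1%) held a match, beside 43.8% of all 32851 RefSeq windows of this length. The largest number was 7, in a window of Ldha. A match is a description of the sequence and not a site of binding.

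Among the 9 enzymes that carry glucose 6-phosphate to lactate (Gpi1, Aldoa, Aldoc, Tpi1, Gapdh, Pgk1, Pgam1, Eno1 and Ldha) Aldoa was the 1 that passed in edgeR without the mouse as a block. The 9 together made up 0.681 ± 0.129% of counts in LT at 0 h and 0.754 ± 0.191% at 8 h (SD, n = 3 young mice), a difference within the spread. Without Aldoa the other 8 made up 0.590 ± 0.109% at 0 h, 0.395 ± 0.0562% at 4 h and 0.477 ± 0.117% at 8 h in LT. ST gave means of 0.570, 0.439 and 0.451% at these times, and MPP gave 0.641, 0.474 and 0.518%. At 12 h the 8 made up 0.564 ± 0.201% in LT, 0.578 ± 0.305% in ST and 0.592 ± 0.130% in MPP. The share of Aldoa in the 9 went from 13.3 ± 1.43% to 36.6 ± 1.01% in LT, from 14.4 ± 0.718% to 34.6 ± 1.90% in ST and from 10.0 ± 1.18% to 28.8 ± 4.80% in MPP between 0 and 8 h. Without ligand it went from 9.97 to 24.9% in LT, from 11.4 to 32.4% in ST and from 10.4 to 28.5% in MPP (means of 2 mice). In both courses the share of Aldoa at 8 h lay outside the spread at 0 h.

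Tpi1, the triosephosphate isomerase that acts directly after aldolase, was lower at 4 and 8 h than at 0 h in all 18 pairs of a mouse and a cell type. In LT it stood at 304 CPM at 0 h, 108 at 4 h and 119 at 8 h in young mouse 1. The same times gave 450.4, 105 and 328 CPM in young mouse 2 and, for young mouse 3, 628, 272 and 289 CPM. In ST the same mice went from 438 to 93.5 and 210.1, from 455 to 191 and 112, and from 521 to 178 and 177 CPM. In MPP they went from 477 to 147 and 152, from 594 to 203 and 227, and from 672 to 206 and 224 CPM. The 4 h values lay below all 0 h values of the same cell type, and in LT the 8 h value of young mouse 2 overlapped the 0 h range. At 12 h LT of young mice 1, 2 and 3 stood at 695, 364 and 289 CPM. The median of Tpi1 over the 12 stimulated libraries was 517 CPM at 0 h and 287 CPM at 12 h. The 4 h change was −1.31 ± 0.43 in LT, −1.49 ± 0.43 in ST and −1.50 ± 0.43 in MPP and did not pass (edgeR adjusted p = 0.252, 0.195 and 0.177). With the mouse as a block it passed in ST (−1.51, edgeR adjusted p = 0.0485) and MPP (−1.49, adjusted p = 0.0456). DESeq2 without the block called it at 4 h in LT, ST and MPP (adjusted p = 0.0345, 0.00836 and 0.00849), and limma voom in MPP (adjusted p = 5.88e-05). Without ligand, ST of young mouse 4 went from 379 CPM at 0 h to 148 at 8 h and ST of old mouse 4 from 751 to 80.6 CPM, a change of −2.05 ± 0.52 (edgeR adjusted p = 0.0703, and 0.0113 with the block, where it was −1.93).

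Gpi1, glucose 6-phosphate isomerase, was lower at 4 h than at 0 h in all 12 stimulated pairs of a mouse and a cell type and in all 6 unstimulated ones. In LT its 0 h values were 1358, 897 and 694 CPM in young mice 1, 2 and 3, and its 4 h values 785, 394 and 269 CPM. The ranges at 0 and 4 h overlapped. The change of −0.92 ± 0.48 did not pass (edgeR adjusted p = 0.498), and with the block it was −0.97 ± 0.23 (adjusted p = 0.0206). Ldha, lactate dehydrogenase A, was higher at 1 h and lower later: its median over the 12 stimulated libraries was 803 CPM at 0 h, 923 at 1 h, 371 at 4 h and 460.2 at 8 h. Without ligand the median over 6 libraries was 1074 CPM at 0 h, 612 at 4 h and 655 at 8 h. Ldha was above its 0 h value in all 12 stimulated pairs at 1 h and below it in all 18 pairs at 4 and 8 h, with fitted 8 h changes of −0.76, −0.67 and −0.70 ± 0.46 in LT, ST and MPP that did not pass in edgeR. In limma voom the MPP change of −0.86 passed (adjusted p = 0.00408). Gapdh, whose product oxidises glyceraldehyde 3-phosphate, had fitted 8 h changes between −0.17 and 0.01 ± 0.28, which did not pass. Pgk1, phosphoglycerate kinase, was higher at 4 h in 11 of 12 stimulated and 6 of 6 unstimulated pairs, with a fitted 8 h change of 0.83 ± 0.37 in LT (edgeR adjusted p = 0.415). In MPP the limma voom change of 0.51 passed (adjusted p = 0.0363). Pgam1, phosphoglycerate mutase, was lower in all 18 pairs at 2 h, beside 2.20% of all genes. Among genes of at least 100 CPM at 0 h the share was 7.92%, beside 7.14% of the 14 members there. Eno1, enolase, was lower in all 18 pairs at 4 h. Neither fall lasted in the stimulated medians, which went from 463 CPM at 0 h to 685 at 12 h for Pgam1 and from 660 to 725 for Eno1. Aldoc, another aldolase, was low and was above its 0 h value at 8 h in 1 of 12 stimulated and 1 of 6 unstimulated pairs. Eno1 has a near-identical copy in the table, Gm5506, with a mean of 88.3 CPM beside 571 CPM for Eno1 over 108 libraries, and its counts may be split between both. Copies of Aldoa, Pgk1 and Gapdh (Aldoart1, Aldoart2, Pgk2 and Gapdhs) were at most 2.87 CPM in any library.

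Direction was counted over 18 pairs of a mouse and a cell type, 12 with and 6 without ligand, each pair sharing its 0 h library with the other times. At 8 h 1 member, Aldoa, was above its 0 h value in all 18 pairs, beside 0.528% of 14401 genes and 1.93% of the 1868 genes of at least 100 CPM at 0 h. Hk3, Tpi1, Ldha and Mif were below it in all 18, that is 4 members, beside 2.67% of all genes and 10.9% of those of at least 100 CPM. At 4 h Aldoa and Hif1a were higher in all 18 pairs (background 0.84% of all and 2.25% of the higher genes). Hk3, Pfkm, Gpi1, Tpi1, Eno1, Ldha and Mif were lower in all 18 (background 3.36% and 12.6%). At 1 h Ldha and Ddit4 were higher in all 12 stimulated pairs (background 2.1%). Of the 33 members 14 were in the class of at least 100 CPM, and 6 of those 14 were lower in all 18 pairs at 4 h and 4 at 8 h. With median-ratio size factors in place of CPM, Gpi1 and Eno1 left the 4 h list, Hk3 left the 8 h list and Pgk1 joined the genes higher at 4 h. Between TMM and median-ratio scaling the median of all genes moved by at most 0.18 on the log2 scale, by over 0.1 in 13 of 40 contrasts. For the 33 members the median fitted change at 8 h was −0.13 in LT (all genes −0.37), −0.29 in ST (all genes −0.26) and −0.10 in MPP (all genes −0.21).

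**Figure D2:**
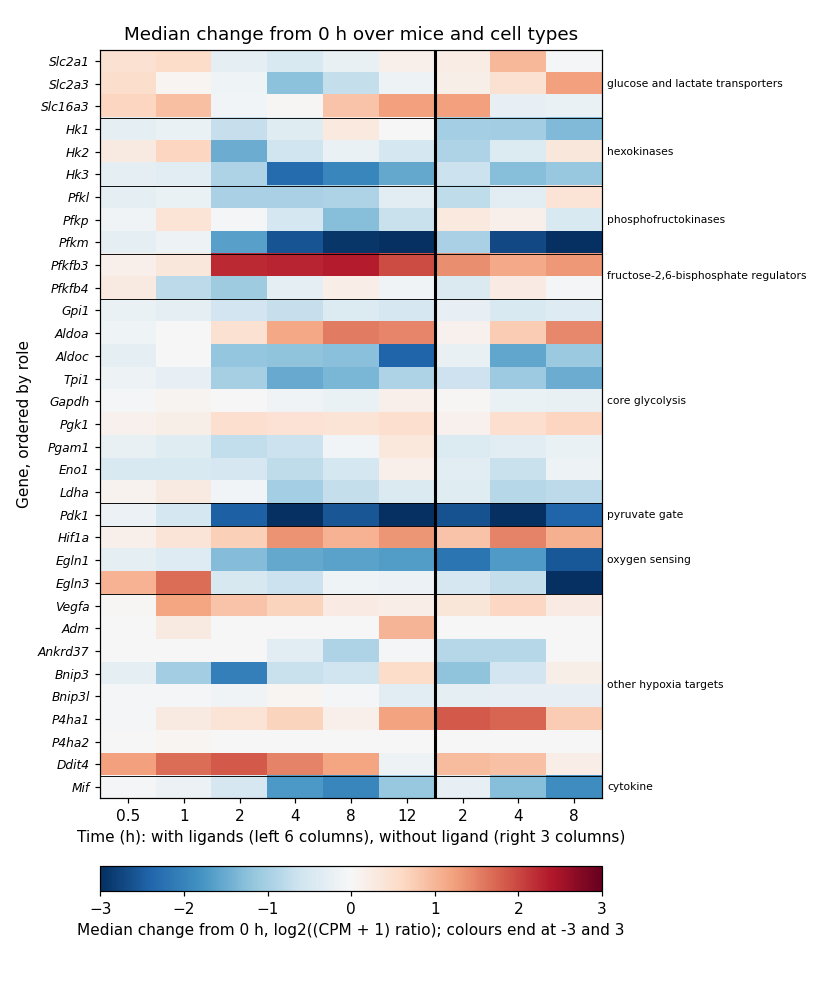
Median change from 0 h over mice and cell types for the 33 genes (rows, ordered by role) at each time (columns, with ligands on the left and without on the right), as the log2 ratio of CPM + 1. Aldoa and Hif1a are red and Tpi1, Mif and Hk3 blue from 4 h on in both courses, while Slc2a3 and Hk1 differ in colour between the courses at 8 h.

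Among the transporters, Slc2a3, which carries glucose into the cell, was mostly lower at 8 h with ligands and higher without. Over the 12 stimulated libraries its median was 167 CPM at 0 h and 92.4 at 8 h, with 3 of 12 pairs higher. Without ligand it went in LT from 349.6 to 810.2 CPM in young mouse 4 and from 127 to 307 in old mouse 4 between 0 and 8 h. In ST it went from 397 to 457 and from 72.6 to 167, and in MPP from 223 to 855 and from 103 to 342 CPM, higher in 6 of 6 pairs. The tested difference between courses at 8 h was −2.04 ± 1.32 in LT, −1.86 ± 1.32 in ST and −1.42 ± 1.31 in MPP and did not pass (edgeR adjusted p = 1, 0.993 and 1). Slc2a1, the other glucose transporter, was higher in 5 of 12 and 3 of 6 pairs at 8 h. Slc16a3, which exports lactate, was higher at 8 h in 9 of 12 stimulated and 2 of 6 unstimulated pairs.

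Hexokinases phosphorylate glucose and trap it in the cell. Hk1 was higher at 8 h in 9 of 12 stimulated pairs (median log2 ratio 0.29) and in 0 of 6 unstimulated pairs (−1.32), with a tested difference of 2.58 ± 1.48 in MPP (edgeR unadjusted p = 0.0869, adjusted p = 1). Hk3, the hexokinase found in myeloid cells, was lower at 4 h in all 12 stimulated pairs, with a median log2 ratio of −2.31. At 0 h it was 14.8 to 108 CPM in young mouse 3, which had the least granule RNA, and 196 to 625 CPM in the other 15 libraries. Whether Hk3 followed granule RNA among the other mice was not tested. In ST at 0 h Hk3 was at most 411 CPM in the young stimulated mice, young mouse 3 included. Their neutrophil granule sums were 158 to 54992 CPM and their myeloid progenitor granule sums 358 to 9011 CPM. In the unstimulated mice Hk3 was at 509 and 625 CPM. Their neutrophil granule sums were 18235 to 60918 CPM and their myeloid progenitor granule sums 12381 to 16897 CPM. Hk2 had no common direction, with 5 of 12 and 3 of 6 pairs higher at 8 h.

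Phosphofructokinase commits sugar to glycolysis, and Pfkfb3 makes its activator fructose 2,6-bisphosphate. Pfkfb3 in LT was at 13.5, 19.0 and 33.9 CPM at 0 h in young mice 1, 2 and 3, and at 68.6, 107 and 204 CPM at 8 h. It was higher at 8 h in 12 of 12 stimulated pairs, with a median log2 ratio of 2.35, and in 5 of 6 unstimulated pairs, with 1.30. The fitted 8 h changes did not pass in edgeR: LT had 2.57 ± 1.32, ST 2.11 ± 1.29 and MPP 2.59 ± 1.32 (edgeR adjusted p = 0.453, 0.738 and 1). In limma voom the MPP change of 2.63 passed (adjusted p = 0.00996). Pfkm, a phosphofructokinase subunit, had a median of 42.8 CPM in the stimulated libraries at 0 h and 3.75 CPM at 8 h, when it was at 0 in 5 of 12 libraries. Pfkl was lower at 8 h in 10 of 12 stimulated pairs and higher in 5 of 6 unstimulated ones. Pfkp was lower at 8 h in 12 of 12 stimulated and 4 of 6 unstimulated pairs, and Pfkfb4 had no common direction (7 of 12 and 2 of 6 higher). Pdk1, the kinase that shuts pyruvate dehydrogenase, had a median of 90.3 CPM at 0 h and 1.25 CPM at 4 h in the stimulated libraries, with 5 of 12 at 0. Without ligand its median went from 58.2 to 0.761 CPM, with 3 of 6 libraries at 0. A count of 0 allows up to 3 counts per library by counting error alone, and none of these genes passed in edgeR.

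**Figure D3:**
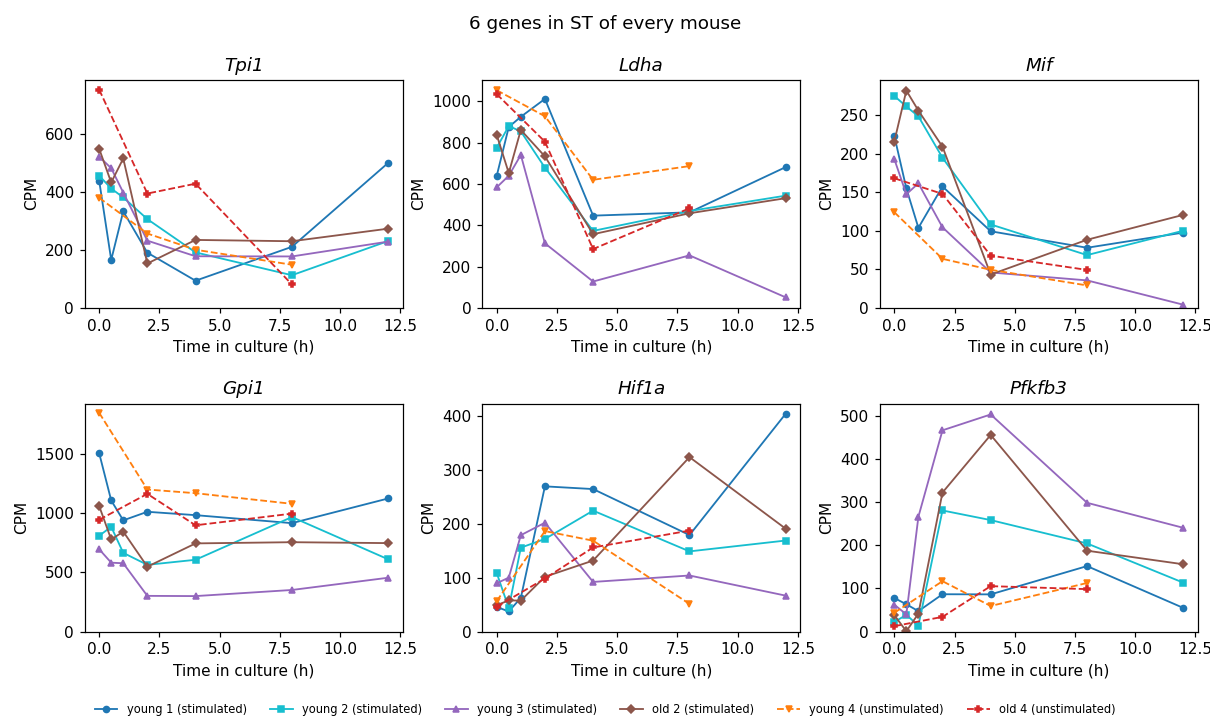
CPM (vertical axes, from 0) of Tpi1, Ldha, Mif, Gpi1, Hif1a and Pfkfb3 in ST against hours in culture, 1 point per library, with dashed lines for the mice without ligand. At 8 h Tpi1, Ldha and Mif lie below their 0 h values in all 6 mice, Pfkfb3 above in all 6, and Hif1a above in 5.

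Of the oxygen-sensing genes, Hif1a itself was higher at 4 h in all 12 stimulated pairs (median log2 ratio 1.34) and in all 6 unstimulated pairs (1.48). Its LT values at 0, 4 and 8 h were 61.1, 472 and 377 CPM in young mouse 1, with young mouse 2 at 84.1, 225 and 206 CPM, and young mouse 3 at 97.6, 139 and 154 CPM. Without ligand they were 63.7, 133 and 149 CPM in young mouse 4 and 62.7, 235 and 124 CPM in old mouse 4. The 3 young stimulated mice did not overlap between 0 and 8 h in LT, but the fitted change of 1.63 ± 0.62 did not pass (edgeR adjusted p = 0.341). In stimulated MPP at 8 h the limma voom change of 1.16 passed (adjusted p = 0.0227). Egln3, the prolyl hydroxylase that HIF induces, was higher early, with a median of 13.8 CPM at 0 h, 44.9 at 1 h and 10.6 at 4 h in the stimulated libraries, higher in 11 of 12 pairs at 1 h. There was no unstimulated library at 1 h. Egln1, the main hydroxylase, was low throughout, with a median of 4.94 CPM at 0 h and 6 of 12 stimulated libraries at 0 by 8 h. The 2 members with the smallest unadjusted p for the difference between courses were both of this group and both low: Egln3 in ST at 8 h (unadjusted p = 0.0485, edgeR adjusted p = 0.816) and Egln1 in ST at 2 h (0.0751, adjusted p = 1). Egln3 in ST at 8 h was at 0 in both unstimulated libraries and at 10.4, 12.2, 36.2 and 14.5 CPM in young mice 1, 2 and 3 and old mouse 2. Egln1 in ST at 2 h was at 0 in both unstimulated libraries, at 10.2 and 1.46 CPM in young mice 2 and 3, and at 0 in young mouse 1 and old mouse 2.

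The other hypoxia-induced genes had no common direction. Ddit4, an inhibitor of mTOR signalling, was higher in all 12 stimulated pairs at 0.5 and 1 h, its median going from 1.53 CPM at 0 h to 7.87 at 1 h. Bnip3l, a receptor for the removal of mitochondria, had no common direction at 8 h (5 of 12 and 1 of 6 pairs higher). Bnip3, of the same function, was lower at 2 h in 12 of 12 stimulated pairs and higher in 8 of 12 at 12 h. P4ha1, a collagen prolyl hydroxylase, was higher at 12 h in 10 of 12 pairs. Vegfa, the endothelial growth factor, Ankrd37, P4ha2 and Adm were low, and Adm was at 0 in all 18 libraries at 0 h. Mif, a cytokine also induced by HIF, was lower late: its LT values at 0 h were 192, 301 and 185 CPM in young mice 1, 2 and 3, and those at 8 h 130.4, 20.4 and 39.2 CPM. It was lower in 12 of 12 stimulated pairs (median log2 ratio −1.96) and 6 of 6 unstimulated pairs (−1.86), with fitted changes of −1.79 ± 0.66, −1.84 ± 0.66 and −1.78 ± 0.66 in LT, ST and MPP (edgeR adjusted p = 0.336, 0.535 and 0.779). In limma voom the stimulated 8 h change of −1.70 in MPP passed (adjusted p = 0.00039). DESeq2 called Mif at 8 h in stimulated ST (−1.89, adjusted p = 0.0341) and unstimulated MPP (−1.95, adjusted p = 0.0305).

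**Figure D4:**
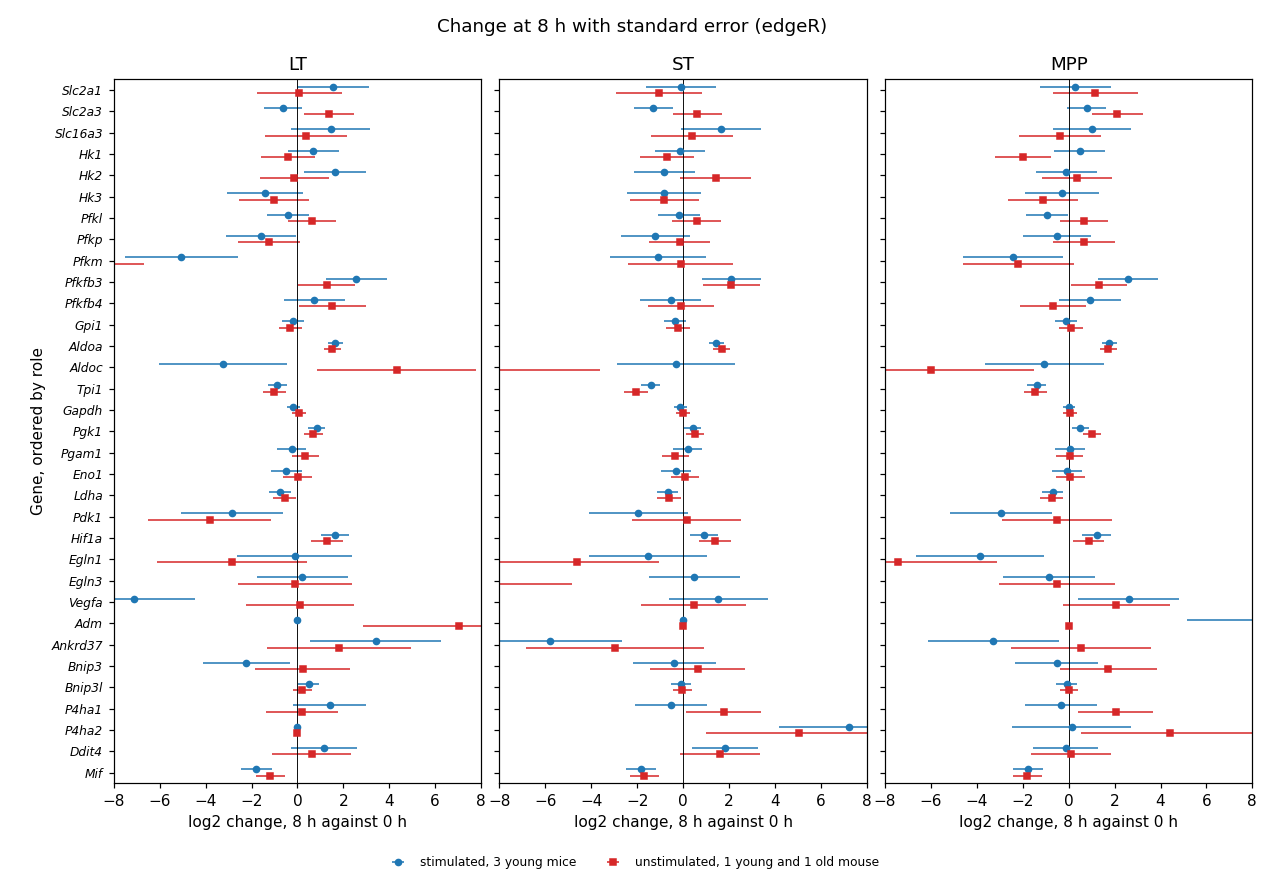
Fitted log2 change at 8 h against 0 h for the 33 genes in each cell type (edgeR), with bars of 1 SE, for 3 stimulated young mice (circles) and the 2 unstimulated mice (squares), values outside the axis range not being drawn. Aldoa lies between 1.44 and 1.77 with short bars in both courses, and most genes of low counts have bars over 1 log2 unit.

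Comparing the 3 young stimulated mice between 0 and 8 h by overlap alone, Hk1, Pfkfb3, Aldoa, Hif1a and Bnip3l were higher without overlap in LT, 5 members, beside 2.84% of all genes. Pfkm, Ldha, Vegfa, Bnip3 and Mif were lower without overlap in LT, beside 10.6%. In ST Pfkfb3 and Aldoa were higher (3.66% of all genes) and Tpi1, Ldha and Mif lower (11.1%). In MPP Pfkfb3, Aldoa, Hif1a, Vegfa and Adm were higher (6.32%) and 11 members were lower (21.2%). Vegfa in LT and Adm in MPP rested on values near 0. In young mouse 3 Vegfa in LT was at 0.273 CPM at 0 h and at 0 at 8 h, where 3 counts are 0.657 CPM. In young mouse 1 Adm in MPP was at 0 at 0 h and at 0.693 CPM, or 3 counts, at 8 h. Aldoa and Pfkfb3 were thus the members higher without overlap in each cell type, and Ldha and Mif those lower in each.

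The response of LT against that of MPP was tested as the difference of their changes from 0 h. No member was called at 2, 4, 8 or 12 h, nor was any of the 13678 genes (0.0%). An unadjusted p under 0.05 was met by 3 of 33 members (8.71% of all genes), DESeq2 called 1 (4.67%) and limma voom 0 (0.175%). For Aldoa the difference at 8 h was −0.12 ± 0.46 (edgeR adjusted p = 1). The smallest unadjusted p belonged to Vegfa at 8 h (0.00609, edgeR adjusted p = 1), which was at 0 in all 3 young LT libraries at 8 h and at 1.39, 8.65 and 2.69 CPM in MPP. The next was P4ha2 at 2 h (0.0143, adjusted p = 1), at 0, 21.3 and 14.7 CPM in LT of young mice 1, 2 and 3 and at 0, 0 and 1.23 CPM in MPP.

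At 0 h the 3 cell types of the 4 young mice showed no called difference in the 28 members that passed the filter on low counts (P4ha2, Ankrd37, Adm, Vegfa and Ddit4 did not). None was called in LT against MPP, LT against ST or ST against MPP, and 0.0% of 11568 genes were. Of 84 tests of a member 1 had an unadjusted p under 0.05 in edgeR without the mouse as a block, beside 2.15% of all tests. In this unpaired fit the members' share was no higher than that of all genes, and DESeq2 and limma voom called 0. The smallest p of this fit was that of Pfkfb3, at 13.5, 19.0, 33.9 and 7.37 CPM in LT and at 77.8, 22.3, 62.4 and 43.6 CPM in ST of young mice 1 to 4, a difference of −1.47 ± 0.56. Its edgeR unadjusted p was 0.0196 and its adjusted p 1. Slc2a3 came next, with 501, 176, 135 and 397 CPM in ST and 167, 112, 66.2 and 223 CPM in MPP (a difference of 1.07 ± 0.52, with an edgeR unadjusted p of 0.0590). The ranges overlapped in both comparisons. Within mice, Pfkfb3 was lower in LT than in ST and Slc2a3 higher in ST than in MPP in each of the 4. With the mouse as a block no member passed either. The smallest edgeR unadjusted p was then 0.000921, for Slc2a3 in ST against MPP (1.04 ± 0.22). Also under 0.05 were Slc2a3 (0.0124), Mif (0.0162) and Pgk1 (0.0335) in LT against MPP, Pgam1 in ST against MPP (0.0293) and Pfkfb3 in LT against ST (0.0338). The share of all genes under the block was not counted, so whether the members exceed it is not known. For Aldoa the difference of LT from MPP was 0.14 ± 0.28, with a 95% interval from −0.46 to 0.73.

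Age was compared at 0 h between 2 old and 4 young mice, with 32 members passing the filter (Adm did not). No member was called in any cell type, and 0.0% of all gene and cell type pairs were. Of 96 tests 1 had an unadjusted p under 0.05 in edgeR, beside 2.69% of all tests, again no higher a share than that of all genes, and DESeq2 and limma voom called 0. It was Pfkfb3, at 82.8 and 34.7 CPM in LT of old mice 2 and 4 and at 7.37 to 33.9 CPM in the 4 young mice (a difference of 1.65 ± 0.66, with an edgeR unadjusted p of 0.0231 and an adjusted p of 1). In LT the old and young values did not overlap, though only by 34.7 against 33.9 CPM. The share of all genes without overlap was not counted. For Pfkfb3 the difference was −1.06 ± 0.72 in ST and −0.095 ± 0.69 in MPP, and neither passed in edgeR. By unadjusted p, Ankrd37 in ST came next (edgeR unadjusted p of 0.0576, adjusted p of 1). It was at 0 in both old mice and at 0 to 3.46 CPM in the young.

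**Figure D5:**
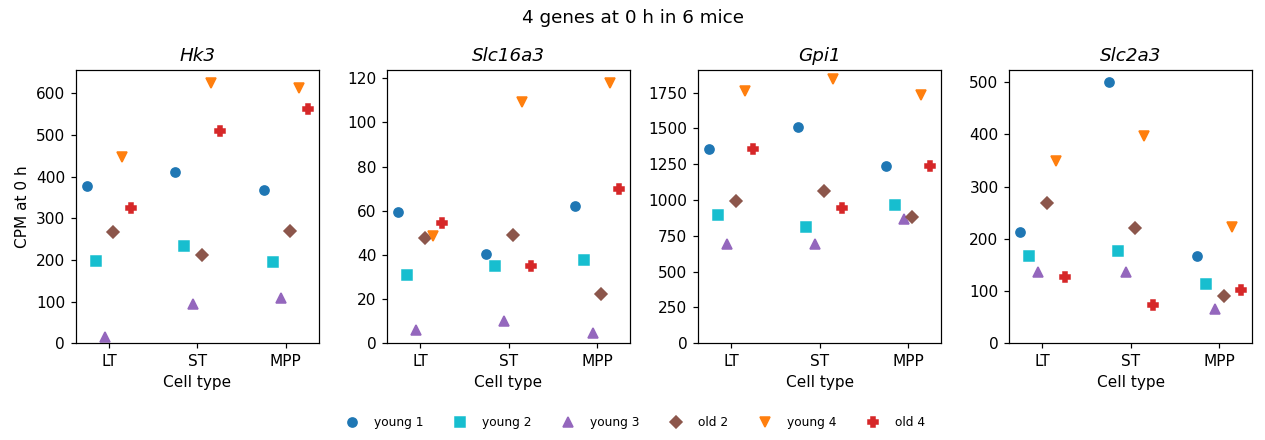
CPM at 0 h (vertical axes, from 0) of Hk3, Slc16a3, Gpi1 and Slc2a3 in 3 cell types, 1 point per mouse. Young mouse 3 (triangles) lies below the other 5 mice for Hk3, Slc16a3 and Gpi1 in every cell type.

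Young mouse 3 stood apart at 0 h in some members as it did in granule RNA. Slc16a3 was at 4.48 to 10.2 CPM in its 3 libraries and at 22.4 to 118 CPM in the other 15. Slc16a3, Hk3, Gpi1, Pgk1 and Pgam1 were the 5 members below the other 5 mice in every cell type, beside 5.59% of 12983 genes. Gpi1 in LT, for example, was at 694 CPM against 897 CPM or more. Pfkl, Pfkm and Aldoc were the 3 members above the other mice in every cell type, beside 4.68% of genes. Pfkl was at 258 to 313 CPM against 44.7 to 179 CPM. Aldoa at 0 h was lowest in young mouse 3 in LT (765 CPM) and MPP (603 CPM), whereas in ST old mouse 4 was lower (753 against 833 CPM).

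Genes of neighbouring pathways were counted in the same fits. Of 15 other glycolytic genes tested, 0 were called in either direction in the stimulated course, with a median change over all contrasts of −0.12. The same count was 0 of 26 for other regulators and targets of HIF, 0 of 10 for pyruvate dehydrogenase with its kinases and phosphatases, and 0 of 7 for the pentose phosphate pathway. In the tricarboxylic acid cycle 1 of 16, Suclg2, a subunit of succinyl-CoA ligase, fell in ST at 12 h and 0 rose. By unadjusted p under 0.05 at any of the 6 times, 14 members in LT, 12 in ST and 5 in MPP passed in edgeR, beside 27.1, 24.6 and 8.90% of all genes. DESeq2 called 9, 8 and 2 members (12.1, 12.9 and 3.52% of all genes) and limma voom 1, 6 and 12 (3.60, 8.82 and 30.8%).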

How the data were processed

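RNA of sorted LT, ST and MPP cells was sequenced in 127 libraries. The authors deposited expected counts per gene, made with RSEM on the mouse build mm9, per the submitters' processing notes, with no version given, and 89.5% of the values were whole. They were rounded to whole numbers for the tests. The 6 near-empty libraries of old mouse 2 (7 to 41 counts) fell under the minimum of 1000 counts and were left out. Repeats of 1 sample were summed, which gave 108 libraries.

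Tests used edgeR 4.0.16 (TMM, quasi-likelihood, filterByExpr) in R 4.3.3, with DESeq2 1.42.0 and limma 3.58.1 voom with library quality weights as alternatives. A call needed an adjusted p under 0.05 over all genes within a single contrast. Calls at any of several times were not corrected over the times. The stimulated course was fitted on 63 libraries of young mice 1, 2 and 3, the courses against each other on 72 libraries of 6 mice at 0, 2, 4 and 8 h, cell types at 0 h on 12 libraries of 4 young mice, and age at 0 h on 18. Intervals of 95% use the t quantile of each fit. Other settings were other size factors, no filter or a mean of at least 5 CPM, the deepest single repeat, libraries of at least 8000 detected genes, the mouse as a block and leaving out each mouse. Log2 ratios of single pairs use CPM + 1. Scripts were tested on simulated data. Python 3.11.15, numpy 2.4.6, pandas 2.3.3 and matplotlib 3.10.9 made the tables and figures.

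Libraries of 1 mouse come from the same animal, so the number pairs them: the mean correlation of deviations was 0.207, 0.0776 and 0.432 within young mice 1, 2 and 3, and −0.133, −0.0546 and −0.223 with other mice. Without the mouse as a block the p-values measure the spread between libraries of a group, which come from different mice. These fits treat the libraries of 1 mouse as independent. With the block, constant differences between mice are taken out, and the p-values measure the spread that remains. Members that pass are named in full (up to 8 per comparison), and where none passes the 2 with the smallest unadjusted p. The members and lists were chosen with earlier results of these data known, and the direction counts and the values of further members were described after they were seen.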

Additional observations from a re-analysis of the deposited data

Results flagged for a closer look

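At 0 h in LT of the 4 young mice, Aldoa was at 1168 CPM in young mouse 1 and at 765 to 798 CPM in the other 3, a gap of 0.917 of the whole range. Hk2 in the same cells was at 181 CPM in young mouse 4 and at 34.4 to 58.5 CPM in the others, a gap of 0.835. Both gaps pass Dixon's 95% critical value for 4 samples, the reason they are given here. They were 2 of 81 groups looked at, and chance gives about 1 in 20.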

How the results depend on the processing

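Counts of called members depended on the tool. With DESeq2, 9 members were called in stimulated LT, 8 in ST and 2 in MPP (edgeR 1 each), 8 unstimulated pairs (4.52% of all pairs, edgeR 2), 1 difference between courses (2.70%) and 1 between LT and MPP responses (4.67%, edgeR 0). With limma voom 6 were called in ST, 12 in MPP, 10 unstimulated pairs (7.74% of all) and 1 difference between courses (2.19%). With the mouse as a block 2 were called in each cell type, 4 unstimulated pairs and 0 differences between courses, and the block changed no other call named. Without libraries of fewer than 8000 detected genes the counts were 0 in LT, 2 in MPP and 4 unstimulated pairs. Other size factors gave 4 and no filter 1 unstimulated pairs. Leaving out each mouse gave 0 to 2 in LT, 0 to 1 in ST and MPP, 0 to 4 unstimulated pairs, and 1 to 2 members higher in all pairs at 8 h. Values that turned their sign were the difference between courses at 8 h of Aldoa in LT (−0.034 without libraries of fewer than 8000 genes) and MPP (−0.10 to 0.34 when each mouse was left out, lowest without young mouse 4), of Pfkfb3 in LT (−0.54 to 2.92, lowest without old mouse 4) and ST (−0.22 with the block, −0.95 to 0.65, below 0 without young mouse 2 or 4) and of Hk1 in ST (−0.33 to 3.32, lowest without young mouse 4), and the stimulated change of Pgk1 in ST (−0.031 to 0.89, lowest without young mouse 2). The cause was not tested. Over the members named, 929 values kept direction and side of the threshold, 40 newly passed, 27 no longer passed and 8 turned. Settings for the direction counts were chosen after seeing the data. All 0 h libraries had 8000 genes or more, so that setting was not run for cell types and age, nor was the deepest repeat for the unstimulated course. Most genes of low counts had standard errors over 1 log2 unit, as did Pfkfb3, so that changes of that size were not detectable with these libraries.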
